A study of Mus musculus with 84 samples.

Results

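The 10 genes described here encode parts of the cell-cell junctions of epithelial cells, which form during the mesenchymal-to-epithelial transition (MET), or regulate them. Embryonic stem cells (ESCs) held some of these genes at high levels and others, Dsp among them, at low levels. The genes were chosen by their symbols, with earlier results of these data known. They are Cdh1, Epcam, Esrp1, Crb3, Dsp, Cldn3, Cldn4, Cldn6, Cldn7 and Ocln, and all 10 were found among the 18909 genes of the deposited counts. When fibroblasts are reprogrammed to pluripotency, they lose mesenchymal adhesion, assemble E-cadherin contacts and acquire apical-basal polarity, and Klf4, which is part of the reprogramming cassette, is a known activator of Cdh1. Adherens junctions hold neighbouring cells together through cadherins, desmosomes anchor keratin filaments to the membrane, and tight junctions made of claudins and occludin seal the space between cells and separate apical from basal membrane. Transcription factors of the Snail and Zeb families repress several of these genes in mesenchymal cells by binding E-boxes in their promoters.

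Transcripts were sequenced from their 5′ ends by STRT RNA-seq in 84 wells that were summed to 30 libraries in 10 groups of 3 biological replicates. Mouse embryonic fibroblasts (MEF) were wild-type cells of the 129 strain with no cassette, vector or doxycycline, grown with FGF2 and heparin. Reprogramming cells came from MEFs of chimeric embryos that carry a doxycycline-inducible c-Myc, Klf4, Oct4 and Sox2 cassette linked to mOrange (MKOS), the rtTA transactivator and a Nanog-GFP reporter that replaces 1 Nanog allele. They were mixed with wild-type MEFs, infected with a retrovirus for a blue fluorescent protein (Cont) or for constitutively active Smad3 (+Sm3CA), kept in ESC medium with LIF, vitamin C and 300 ng/ml doxycycline, and sorted for mOrange on day 3, 6, 8 or 10. ESCs were the TNG MKOS line, with the same cassette and reporter but without doxycycline or vector. Sorted cells on each day are a mixture in which most cells do not become pluripotent, so a lower count can mean fewer cells that express a gene or less RNA per cell, which cannot be told apart here. MEFs differ from day 3 cells in cassette, doxycycline, medium, vector and sort at once, so these factors cannot be told apart in comparisons with MEFs. ESCs differ from day 10 cells in doxycycline, vector and mOrange sort as well as in cell state. These cannot be told apart in comparisons with ESCs.

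Libraries held 1008596 to 2296059 reads, with day 10 replicates made of 2 wells and all others of 3. Smad3 checked the vector labels, with 5.19 to 25.4 normalized counts in the Cont libraries and 32.8 to 184 in the +Sm3CA libraries, endogenous and vector reads together. Summed over 9 ESC markers, normalized counts were 8.89 to 12.1 in MEFs, 403 to 974 in Cont and 1032 to 2301 in +Sm3CA on day 10, and 29681 to 54212 in ESCs. Summed over 9 fibroblast markers they were 3908 to 5395 in MEFs and 2.57 to 5.48 in ESCs, which is as labelled, and 710 to 2424 in reprogramming cells. Of the 8 that could be tested against MEFs, 7 were lower and 1 higher in each series on day 3 (adjusted p under 0.05). On day 10, 4 were lower and 1 higher in Cont, and 6 lower and 2 higher in +Sm3CA. Over all 10979 genes tested, 2290 and 2270 were lower in Cont and +Sm3CA on day 3, and 2480 and 2459 higher. On day 10, 1830 and 2170 genes were lower, and 2401 and 2819 higher. Dcn was higher than in MEFs on day 10, with log2 fold changes of 3.74 in Cont and 3.66 in +Sm3CA. Markers of stratified epithelium (10 genes, Krt6a and Krt14 among them) summed to 1.09 to 11.2 in MEFs, 784 to 2228 in reprogramming cells and 0.913 to 14.5 in ESCs. Immune markers (7 genes, Lyz2 and Cd68 among them) were at 315 to 2706 in all MEF and reprogramming libraries and at 16.7 to 36.1 in ESCs, 5 endothelial markers were at 1.91 to 33.3 everywhere, and 6 neural markers reached 2814 in 1 Cont day 8 library and 1272 in 1 +Sm3CA day 10 library against 57.8 to 754 in the others.

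On GRCm38 (mm10), Cldn4 lies on the minus strand of chromosome 5 at 134945119 to 134946934, and Cldn3 lies 39.3 kb away on the plus strand at 134986214 to 134987472. Epcam (87635979 to 87651129), Cldn6 (23679249 to 23682446) and Crb3 (57059105 to 57065918) are on the plus strand of chromosome 17. Dsp (38151294 to 38198577, plus strand) and Ocln (100496507 to 100552718, minus strand) are on chromosome 13. Cdh1 is on chromosome 8 (106603351 to 106670246, plus strand), Cldn7 on chromosome 11 (69964779 to 69967885, plus strand) and Esrp1 on chromosome 4 (11331933 to 11386783, minus strand). All are protein coding. Crb3 overlaps Slc25a23 and Dennd1c, and Cldn3 overlaps Wbscr25, all on the opposite strand, and strand use in counting is not given in the sources used here. Slc25a23 and Dennd1c had at most 12 and 8 reads in any group, against 16 or more of Crb3 in every group but MEFs, where Crb3 had none. Wbscr25 had at most 2 reads in any group but ESCs, where it had 7 against 11 of Cldn3.

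Promoter sequence is shown for 5 members whose counts rose at different times. Cldn3 and Dsp rose by day 3, Epcam by day 3 and again by day 6, Cldn4 by day 6 and Cldn6 by day 10. The further rise of Dsp by day 6 (1.54-fold in Cont and 1.48-fold in +Sm3CA) lost its call when most single libraries were left out. Each is the 250 bases before the RefSeq start on GRCm38.p6, 5′ to 3′ on the gene's own strand, at chr5:134985964-134986213 (plus) for Cldn3, chr13:38151044-38151293 (plus) for Dsp, chr17:87635729-87635978 (plus) for Epcam, chr5:134946935-134947184 (minus) for Cldn4 and chr17:23679115-23679364 (plus) for Cldn6. Capitals mark the E-box bound by Snail and Zeb factors (CACCTG or CAGGTG) and a box that Klf factors recognise (CCACCC or GGGTGG). The first 3 Klf boxes of Cldn3 lie side by side, and the first pair share 1 base.
Cldn3: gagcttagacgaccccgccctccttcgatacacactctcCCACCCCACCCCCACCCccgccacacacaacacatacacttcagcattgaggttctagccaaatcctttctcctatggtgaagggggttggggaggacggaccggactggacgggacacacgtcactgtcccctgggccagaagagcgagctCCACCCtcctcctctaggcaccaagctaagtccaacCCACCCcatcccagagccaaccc
Dsp: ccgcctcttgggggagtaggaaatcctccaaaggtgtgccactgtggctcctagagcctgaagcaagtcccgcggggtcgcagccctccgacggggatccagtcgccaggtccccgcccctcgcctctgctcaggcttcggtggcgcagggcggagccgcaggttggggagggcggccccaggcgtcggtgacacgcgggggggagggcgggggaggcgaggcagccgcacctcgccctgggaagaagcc
Epcam: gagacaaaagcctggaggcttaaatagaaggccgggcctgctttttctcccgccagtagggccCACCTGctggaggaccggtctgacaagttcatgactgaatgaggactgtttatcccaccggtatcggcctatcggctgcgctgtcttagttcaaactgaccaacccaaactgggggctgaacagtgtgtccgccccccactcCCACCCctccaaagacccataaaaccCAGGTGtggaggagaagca
Cldn4: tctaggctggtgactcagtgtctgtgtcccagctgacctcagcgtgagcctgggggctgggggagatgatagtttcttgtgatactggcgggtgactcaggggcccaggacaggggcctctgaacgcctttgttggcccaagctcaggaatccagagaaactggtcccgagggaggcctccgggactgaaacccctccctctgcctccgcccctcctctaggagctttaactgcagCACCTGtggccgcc
Cldn6: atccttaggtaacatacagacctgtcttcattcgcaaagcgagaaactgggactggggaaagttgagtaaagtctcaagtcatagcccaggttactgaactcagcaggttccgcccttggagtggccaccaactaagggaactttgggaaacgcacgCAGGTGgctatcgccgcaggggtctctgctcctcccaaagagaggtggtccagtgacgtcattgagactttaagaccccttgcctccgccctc
The RefSeq promoters used here held 11 entries for 8 of the 10 members, which were Epcam, Crb3, Dsp, Cldn3, Cldn4, Cldn6, Cldn7 and Ocln. The E-box letters stood in 7 of the 11 and in 17.2% of all 32851 promoters of this length, and the Klf box stood in 4 of the 11 and in 28.1% of all. Both Crb3 entries share 220 bases and the same 3 E-boxes, and by gene the E-box stood in 6 of 8 members. Letters recognised by Grhl factors (AACCGG or CCGGTT) were in 2 of the 11 against 5.62% of all, and the AP-2 motif GCCNNNGGC was in 2 of the 11 against 13.7%. In the promoters shown, Epcam held 2 E-boxes and 1 Klf box, Cldn3 held 5 Klf boxes and no E-box, Cldn4 and Cldn6 held 1 E-box each, and Dsp held neither. A match describes letters only.

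The levels of the 10 genes are given as read counts divided by DESeq2 size factors (normalized counts, n = 3 per group). Differences are given as log2 fold changes from edgeR's quasi-likelihood test, with a Benjamini-Hochberg adjusted p over all genes tested. Their standard error (SE) was derived from that test, as the absolute log2 fold change divided by the square root of the F statistic. A change was called at an adjusted p under 0.05. All 10 members passed the filter on low counts, in a fit of the 24 reprogramming libraries (10237 genes) and in a fit of all 30 libraries (10979 genes), which a gene can pass through the groups in which it is high. Folds against groups with no read are lower bounds, taken against 3 reads in each library.

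**Figure D1:**
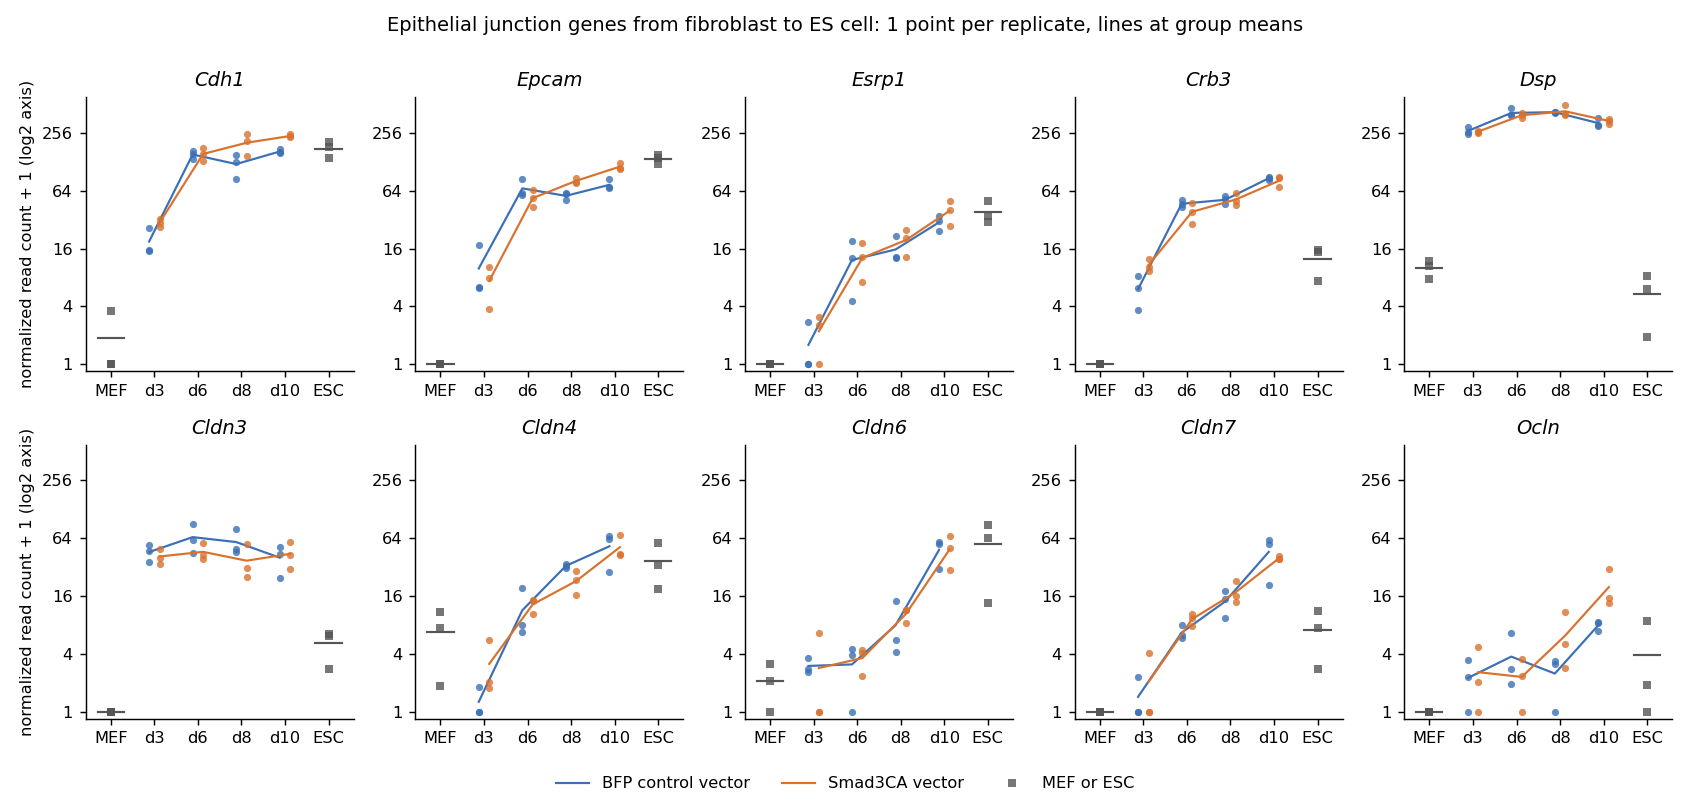
Normalized read count plus 1 (log2 axis) of each member in MEFs, on the 4 reprogramming days (d3, d6, d8 and d10) with the BFP control or the Smad3CA vector, and in ESCs, with 1 point per replicate and lines at group means of 3. Dsp and Cldn3 are high from day 3 on and low in ESCs. Cdh1 and Epcam climb to day 6, have higher means again on days 8 and 10 in +Sm3CA, and are high in ESCs. Cldn6 climbs last, from 6.94 on day 8 to 47.4 on day 10 in Cont.

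The question of the day 3 comparison with MEFs was which junction genes were already on after 3 days of MKOS expression. Dsp, Cldn3, Cdh1, Epcam and Crb3 were higher than in MEFs in both series, Cldn4 was lower in Cont, and Cldn6, Cldn7, Ocln and Esrp1 passed the test in neither. In Cont 5 of the 10 members were called higher, against 22.6% of all genes tested, and 1 lower, against 20.9%. In +Sm3CA 5 were called higher, against 22.4% of all genes. Some members passed the filter on low counts only through groups outside this comparison. With only the 6 libraries compared, 3 members passed it in each series, and all 3 were called.

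Dsp, which encodes desmoplakin, the plaque protein that ties desmosomes to keratin filaments, had 6.67, 10.9 and 9.51 normalized counts in MEFs and 258, 293 and 246 in Cont on day 3. In +Sm3CA on day 3 it had 256, 262 and 268. Every reprogramming library was far above every MEF library, and the means differed 29.5-fold in Cont and 29.1-fold in +Sm3CA (log2 fold changes 4.97 ± 0.26 and 4.95 ± 0.26 SE, adjusted p = 3.5e-19 and 3.9e-19).

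Cldn3 encodes a barrier-forming claudin. It had no read in MEFs, 46.4, 53.2 and 35.0 normalized counts in Cont and 48.4, 39.0 and 33.4 in +Sm3CA on day 3. That was at least 14.6-fold and at least 13.1-fold higher than in MEFs (adjusted p = 4.1e-11 and 8.5e-11).

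Cdh1, the gene of E-cadherin, the adhesive core of epithelial adherens junctions, had 3 reads in all MEF libraries together, all in replicate 3. On day 3 it had 14.3, 14.3 and 25.2 normalized counts in Cont and 28.4, 31.5 and 26.1 in +Sm3CA. The ratio to MEFs was 18.4 in Cont (95% counting interval 6.00 to 92.0) and 28.5 in +Sm3CA (9.48 to 141), with adjusted p = 1.4e-07 and 7.8e-10.

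Epcam, a homophilic adhesion molecule of epithelia and pluripotent cells, had no read in MEFs. It had 5.35, 5.19 and 16.3 normalized counts in Cont and 6.91, 2.78 and 9.39 in +Sm3CA on day 3, at least 2.92-fold and at least 2.08-fold higher (adjusted p = 1.3e-06 and 2.5e-05). Crb3, a transmembrane Crumbs protein that organises the apical polarity complex, also had no read in MEFs and had 2.67, 5.19 and 7.32 normalized counts in Cont and 11.5, 8.35 and 9.39 in +Sm3CA. These were at least 1.65-fold and at least 3.19-fold higher (adjusted p = 3.7e-05 and 2.1e-07).

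Cldn4, another barrier claudin, went the other way from its neighbour Cldn3. It had 10.00, 6.51 and 0.864 normalized counts in MEFs, 16 reads in all, and a single read in the 3 Cont day 3 libraries together. The ratio of MEFs to Cont was 16.8 (95% counting interval 2.61 to 704), and the log2 fold change was −3.57 ± 1.10 SE (adjusted p = 0.0076). Without MEF replicate 1, which held 9 of the 16 reads, it was −2.96 and no longer called (adjusted p = 0.059). In +Sm3CA, with 0.768, 4.64 and 1.04 normalized counts that overlapped those of MEFs, it was −1.22 ± 0.77 SE (adjusted p = 0.20).

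At the same step, mesenchymal genes were lower, where 20.9% of all genes fell in Cont and 2270 of 10979 in +Sm3CA. Of 11 mesenchymal counterparts (Vim, Fn1, N-cadherin and the Snail, Zeb and Twist factors among them) 9 fell in Cont and 8 in +Sm3CA, with a median log2 fold change over the 11 of −2.02 and −2.36 against 0.0014 and 0 over all genes. Snai2, a Snail-family repressor, went from 93.3 ± 14.5 (SD, n = 3) in MEFs to 4.54 ± 0.86 in Cont on day 3. Fn1, the gene of fibronectin, went from 3183 ± 443 to 162 ± 7. Cdh11, a mesenchymal cadherin, went from 402 ± 35 to 26.0 ± 4.1.

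Among 19 tested partners of adherens junctions and desmosomes, 8 rose and 7 fell in Cont by day 3, against 22.6% and 20.9% of all genes. In +Sm3CA 8 rose and 6 fell, against 2459 and 2270 of all 10979 genes. The largest rises in Cont were those of Pkp1, a plakophilin of desmosomal plaques, which had no read in MEFs and 21.7 ± 7.8 normalized counts in Cont on day 3, of Dsc2, a desmosomal cadherin, which went from 0.724 ± 1.25 to 71.9 ± 2.6, and of Dsg3, a desmosomal cadherin of squamous epithelia, which went from 0 to 9.60 ± 8.54. In the same libraries the summed stratified epithelium markers were at 784 to 1237 in Cont and 817 to 1648 in +Sm3CA against 1.09 to 11.2 in MEFs, with Krt6a at 0 reads in MEFs and 280 ± 73 normalized counts in Cont on day 3. Of the 10 markers, 5 passed the filter on low counts, and the basal keratin Krt5 and the basal factor Trp63 had no read in Cont on day 3, nor Krt15 and Trp63 in +Sm3CA. The part of stratified epithelial cells in the counts of Dsp and its partners was not tested.

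Of 14 other tight junction and polarity genes tested, 3 rose and 2 fell in Cont, shares not above the 22.6% and 20.9% of all genes. In +Sm3CA 4 rose and 3 fell, against 2459 and 2270 of all 10979 genes. Marveld2 (tricellulin, which seals corners where cells meet) went from 0.370 ± 0.641 in MEFs to 9.03 ± 1.69 in Cont, and F11r (the junctional adhesion molecule JAM-A) from 101 ± 23 to 264 ± 42. Cldn12, a claudin, fell from 46.0 ± 9.6 to 14.2 ± 3.5. Of 22 other epithelial genes tested, 8 rose and 2 fell in Cont and 9 rose and 3 fell in +Sm3CA, with Krt8, a simple-epithelial keratin, going from 2.12 ± 1.24 to 132 ± 20 and Ovol1, an epithelial zinc-finger factor, from 0.370 ± 0.641 to 14.6 ± 3.8 in Cont.

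The day 6 comparison asked which genes joined next, within each series. Between day 3 and day 6 the same 7 members were called higher in both series, Cdh1, Epcam, Crb3, Cldn4, Cldn7, Esrp1 and Dsp, against 2.94% of all genes tested in Cont and 6.52% in +Sm3CA. No member fell. Cldn3, Cldn6 and Ocln passed the test in neither. With only the 6 libraries compared, 5 members passed the filter in Cont and 6 in +Sm3CA, and 4 and 5 of them were called.

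Cdh1 reached 165, 154 and 134 normalized counts in Cont and 177, 128 and 154 in +Sm3CA on day 6, with no overlap with day 3. Its mean was 8.44-fold that of day 3 in Cont and 5.34-fold in +Sm3CA (log2 fold changes 3.04 ± 0.28 and 2.43 ± 0.26 SE, adjusted p = 6.4e-10 and 2.1e-08). Epcam reached 56.8, 83.3 and 59.7 in Cont and 52.2, 41.9 and 63.4 in +Sm3CA, 7.46-fold and 8.25-fold the day 3 means (2.80 ± 0.32 and 3.03 ± 0.35 SE, adjusted p = 9.1e-08 and 9.4e-08). Crb3 reached 45.0, 42.1 and 50.1 in Cont and 47.0, 27.9 and 37.8 in +Sm3CA, 9.04-fold and 3.85-fold (3.14 ± 0.35 and 1.93 ± 0.32 SE, adjusted p = 6.2e-08 and 6.6e-05). Each day 6 library of the 3 genes was above every day 3 library of its series.

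Esrp1, the RNA-binding protein that sets epithelial splice patterns, had 2 reads in Cont and 4 in +Sm3CA on day 3, and 11.8, 18.2 and 3.51 normalized counts in Cont and 17.1, 6.21 and 12.1 in +Sm3CA on day 6. The ratio in Cont was 17.2 (95% counting interval 4.47 to 147) and in +Sm3CA 9.79 (adjusted p = 0.0024 and 0.0025).

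Cldn4 had 6.92, 5.74 and 18.4 normalized counts in Cont and 13.7, 13.2 and 9.45 in +Sm3CA on day 6. The ratio to day 3 was 31.9 in Cont, where day 3 had a single read (95% counting interval 5.37 to 1292, adjusted p = 0.0023), and 5.63 in +Sm3CA (log2 fold change 2.51 ± 0.67 SE, adjusted p = 0.0093). Without +Sm3CA day 3 replicate 1 the latter was 2.07 (adjusted p = 0.058).

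Cldn7, which is found along the lateral membrane as well as in tight junctions and binds Epcam, had 6.92, 4.79 and 5.27 normalized counts in Cont and 8.55, 9.31 and 6.75 in +Sm3CA on day 6, against 1 read and 3 reads in all day 3 libraries of each series. Its ratio was 18.1 in Cont (95% counting interval 2.91 to 748, adjusted p = 0.019) and 9.40 in +Sm3CA (2.89 to 48.4, adjusted p = 0.0079). The calls depended on single libraries. The adjusted p was 0.11, 0.12 and 0.078 without Cont day 3 replicate 1, Cont day 3 replicate 3 and Cont day 6 replicate 1, and 0.052 and 0.060 without +Sm3CA day 3 replicates 1 and 2.

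Dsp changed little by comparison, to 458, 387 and 386 normalized counts in Cont and 408, 362 and 394 in +Sm3CA. That was 1.54-fold and 1.48-fold the day 3 means (0.64 ± 0.18 and 0.59 ± 0.18 SE, adjusted p = 0.032 and 0.030). The call in Cont was lost whichever of the 6 libraries was left out (log2 fold change 0.54 to 0.71, adjusted p 0.059 to 0.20), and that in +Sm3CA was lost without any but day 6 replicate 2 (0.54 to 0.61, adjusted p 0.066 to 0.12).

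Other epithelial genes moved in the same interval, with 7 of 22 rising in Cont and 10 of 22 in +Sm3CA and none falling. Of all genes tested, 2.94% and 6.52% rose, and 217 and 645 of 10979 fell, in Cont and +Sm3CA. Ehf, an epithelial Ets factor, went from 0 reads on day 3 to 5.78 ± 4.97 normalized counts on day 6 in Cont. Of the 11 mesenchymal genes 1 fell further in Cont, which was Cdh2, the gene of N-cadherin, from 47.3 ± 9.9 to 18.0 ± 6.9, and 2 fell in +Sm3CA, Cdh2 and Fn1. None of the other tight junction and polarity genes was called in Cont, and 1 of 14, Tjp1, rose in +Sm3CA.

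**Figure D2:**
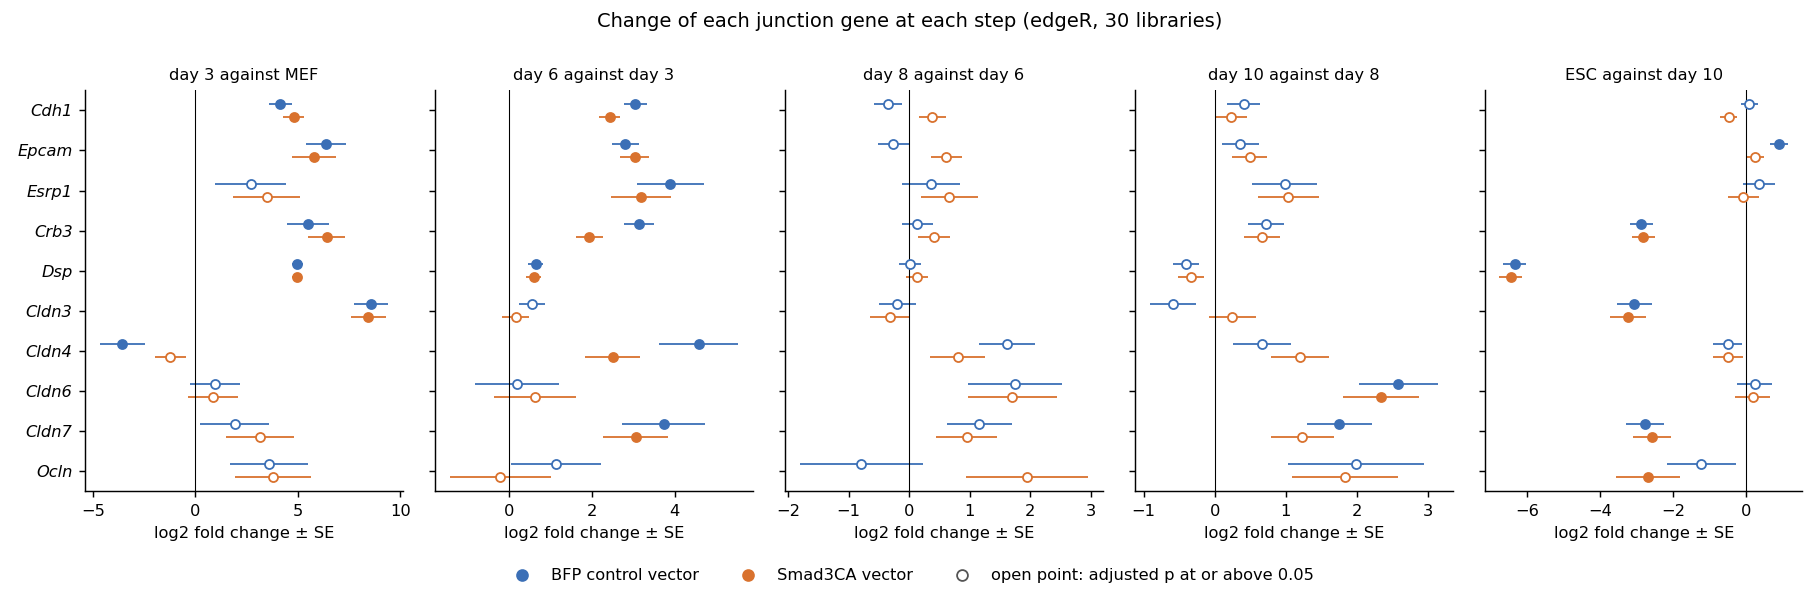
Log2 fold change of each member (x axis, ± SE, edgeR with 30 libraries, scale differs by panel) at each step from MEF to ESC in the Cont and +Sm3CA series, with filled points at adjusted p under 0.05. Calls are spread over the day 3, day 6 and day 10 steps, with 6, 7 and 2 in Cont and 5, 7 and 1 in +Sm3CA, and the step to ESCs has 5 in each, while the step from day 6 to day 8 has no filled point.

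From day 6 to day 8 no member was called in either series, where 0.975% of all genes tested were called in Cont and 2.85% in +Sm3CA. At an unadjusted p under 0.05, 1063 and 1816 genes passed, with Cldn4, Cldn6 and Cldn7 among them in Cont and Epcam and Cldn6 in +Sm3CA. Cldn4 had the smallest adjusted p (0.079, log2 fold change 1.61 ± 0.46 SE), with 31.7, 30.6 and 33.4 normalized counts in Cont on day 8. With the DESeq2 Wald test the number of members called was also 0 in both series. Cldn4 was called in Cont with no filter on low counts (1.59, adjusted p = 0.014), with the first 2 wells (1.73, adjusted p = 0.035), with only the 6 libraries compared (1.64, adjusted p = 0.021) and without Cont day 6 replicate 3 (2.27, adjusted p = 0.039).

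Day 10 brought the rise of Cldn6, a claudin of embryonic epithelia and pluripotent cells. In Cont it had 1.78, 2.59 and 1.63 normalized counts on day 3, 3.46, 2.87 and 0 on day 6, 4.53, 3.17 and 13.1 on day 8, and then 29.6, 55.0 and 57.5 on day 10. In +Sm3CA it had 10.5, 7.35 and 10.5 on day 8 and 49.1, 65.5 and 28.6 on day 10. All day 10 libraries were above all earlier ones, with Cont day 8 replicate 3 standing above the other 2 of its group.

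The day 10 mean of Cldn6 was 6.82-fold that of day 8 in Cont (2.58 ± 0.56 SE, adjusted p = 0.0081) and 5.05-fold in +Sm3CA (2.33 ± 0.53 SE, adjusted p = 0.0094). The calls did not survive the loss of Cont day 8 replicate 1, Cont day 8 replicate 2 or Cont day 10 replicate 3 (log2 fold changes 2.38, 2.28 and 2.43, adjusted p = 0.078, 0.077 and 0.056), nor of +Sm3CA day 8 replicate 2 or day 10 replicate 2 (2.18 and 2.03, adjusted p = 0.073 and 0.092). The direction was the same each time.

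Cldn7 had 17.0, 8.44 and 13.7 normalized counts on day 8 and 19.8, 55.0 and 60.3 on day 10 in Cont, and 14.8, 12.9 and 21.8 and then 37.9, 40.4 and 37.8 in +Sm3CA. It was called in Cont (1.75 ± 0.46 SE, adjusted p = 0.040) and missed the threshold in +Sm3CA (1.23 ± 0.44 SE, adjusted p = 0.14), and the difference between the series was not tested. The Cont call was lost with the replicate block (1.72, adjusted p = 0.063) and without any of the 6 libraries but day 10 replicate 1 (1.48 to 1.95, adjusted p 0.10 to 0.28). So 2 members were called higher in Cont, against 0.92% of all genes tested, and 1 in +Sm3CA, against 1.27%.

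ESC markers were called in the same interval, 6 of 9 in each series, against 0.92% of all genes in Cont and 1.27% in +Sm3CA. Dppa5a and Tdgf1 were among the 3 with the largest change in both. Of the other junction partners 1 of 19 rose in each series, the desmosomal cadherin Dsg2, with 17.2 ± 6.6 normalized counts on day 8 and 51.6 ± 26.0 on day 10 in Cont and 26.9 ± 2.4 and 68.0 ± 7.0 in +Sm3CA. Rab25, a GTPase of epithelial vesicle transport, was the only called gene of 22 other epithelial genes in Cont (4.26 ± 2.03 to 25.5 ± 6.6), and none was called in +Sm3CA.

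Ocln, the gene of occludin, was low up to day 8 and had its highest counts on day 10 in each series. It had no read in MEFs, 0, 1.30 and 2.44 normalized counts in Cont on day 3, 5.54, 0.957 and 1.76 on day 6, 0, 2.11 and 2.39 on day 8 and 7.41, 5.97 and 7.54 on day 10. In +Sm3CA it had 0, 3.71 and 1.04 on day 3, 2.56, 0 and 1.35 on day 6, 1.85, 9.80 and 4.04 on day 8 and 12.6, 29.5 and 14.3 on day 10. Groups overlapped up to day 8, and no step between days was called in either series.

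By day 10 all 10 members were higher than in MEFs in both series, against 21.9% of all genes tested in Cont and 25.7% in +Sm3CA, and all 10 were still called whichever library was left out. The median log2 fold change of the 10 was 7.59 in Cont and 8.10 in +Sm3CA against 0.11 and 0.15 over all genes, or 4.22 and 4.26 with the 6 members that had no read in MEFs set to their bound. For those 6 the bounds in Cont were at least 27.8-fold (Crb3), 23.7-fold (Epcam), 14.7-fold (Cldn7), 12.8-fold (Cldn3), 9.48-fold (Esrp1) and 2.28-fold (Ocln). The ratio was 161 for Cdh1 (95% counting interval 54.6 to 782) and 48.0 for Cldn6 (16.1 to 236), and the means differed 35.6-fold for Dsp and 8.92-fold for Cldn4. All comparisons with MEFs share the same 3 MEF libraries. Since the members were chosen with earlier results of these data known, their calls beside the share over all genes are a description only.

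The comparison with ESCs asked how far day 10 levels were from those of pluripotent cells. In each series 5 of the 10 genes were called, a share near that of all genes. Of all 10979 genes, 5689 were called against Cont and 5028 against +Sm3CA. Cdh1, Esrp1, Cldn4 and Cldn6 were not called different from ESCs in either series, while Dsp, Cldn3, Crb3 and Cldn7 were higher on day 10 than in ESCs in both. Against Cont day 10, ESCs had 1 member called higher (21.5% of all genes tested were higher) and 4 lower (30.3%). Against +Sm3CA day 10 they had 5 lower (27.2%). These comparisons share the ESC libraries, which had no doxycycline or vector, and those factors cannot be told apart from cell state here.

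Dsp had 304, 362 and 298 normalized counts in Cont and 342, 316 and 357 in +Sm3CA on day 10, and 0.913, 7.23 and 5.14 in ESCs, 9 reads in all. The day 10 mean was 72.5-fold that of ESCs in Cont and 76.4-fold in +Sm3CA (−6.35 ± 0.31 and −6.46 ± 0.31 SE for ESCs against day 10, adjusted p = 8.2e-21 and 5.8e-21). Its highest mean was 426 ± 57 (SD, n = 3), in +Sm3CA on day 8.

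Cldn3 had 50.6, 43.0 and 23.6 normalized counts in Cont and 42.1, 29.5 and 57.3 in +Sm3CA on day 10 against 5.48, 1.81 and 5.14 in ESCs, so that every day 10 library was above every ESC library. The day 10 means were 9.43-fold and 10.4-fold those of ESCs (−3.06 ± 0.48 and −3.23 ± 0.48 SE, adjusted p = 1.4e-06 and 6.3e-07). Crb3 had 86.4, 81.2 and 87.6 in Cont and 68.7, 87.4 and 84.6 in +Sm3CA against 13.7, 14.5 and 6.43, 7.38-fold and 6.96-fold the ESC mean (−2.86 ± 0.32 and −2.81 ± 0.32 SE, adjusted p = 6.9e-10 and 1.8e-09).

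Cldn7 had 6.39, 1.81 and 10.3 normalized counts in ESCs, below each day 10 library of either series. Its day 10 means of 45.0 ± 22.0 in Cont and 38.7 ± 1.5 in +Sm3CA were 7.30-fold and 6.28-fold the ESC mean (−2.76 ± 0.52 and −2.57 ± 0.53 SE, adjusted p = 3e-05 and 0.00012). Ocln, with 0.913, 0 and 7.72 in ESCs, was lower in ESCs than in +Sm3CA (−2.68 ± 0.88 SE, adjusted p = 0.011) but not called against Cont (−1.22 ± 0.94 SE, adjusted p = 0.29). That call was lost without +Sm3CA day 10 replicate 2 (−2.17, adjusted p = 0.084) and without ESC replicate 1 (−2.16, adjusted p = 0.076).

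Cdh1 had 170, 160 and 156 normalized counts in Cont and 229, 246 and 233 in +Sm3CA on day 10 against 179, 204 and 140 in ESCs. The Cont libraries lay within the ESC range and the +Sm3CA libraries above it, and neither difference was called (0.10 ± 0.23 and −0.47 ± 0.23 SE for ESCs against day 10, adjusted p = 0.73 and 0.093). Esrp1 had 23.5, 33.5 and 30.2 in Cont and 26.6, 39.3 and 49.5 in +Sm3CA against 33.8, 28.9 and 48.9 in ESCs (0.37 ± 0.43 and −0.07 ± 0.43 SE, adjusted p = 0.49 and 0.91).

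Cldn6 had 63.9, 12.6 and 86.2 normalized counts in ESCs, where replicate 2, with the smallest size factor of the 3, was far below the others. ESCs against day 10 differed by 0.25 ± 0.48 SE in Cont and 0.20 ± 0.48 SE in +Sm3CA (adjusted p = 0.69 and 0.76). Cldn4 had 27.2, 60.9 and 66.9 in Cont and 67.3, 42.6 and 41.7 in +Sm3CA on day 10 against 32.9, 18.1 and 56.6 in ESCs, with overlapping ranges (−0.50 ± 0.41 and −0.48 ± 0.42 SE, adjusted p = 0.32 and 0.36).

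Epcam was higher in ESCs (140, 150 and 121 normalized counts) than in Cont on day 10 (66.7, 68.1 and 82.9), by 0.91 ± 0.25 SE (adjusted p = 0.0027). Against +Sm3CA, with 105, 110 and 122, the difference was 0.25 ± 0.25 SE (adjusted p = 0.43). These values depend on how libraries are scaled. Plain scaling to the library total (CPM) moved the median ratio of ESCs to Cont day 10 over 10224 genes by −0.41 on the log2 scale. On that scale Epcam was at 73.6 ± 2.4 in ESCs, 52.4 ± 8.0 in Cont and 80.7 ± 10.5 in +Sm3CA, and the uncalled small differences of Cdh1, Cldn6 and Esrp1 against Cont and of Epcam and Cldn6 against +Sm3CA turned round. No member that was called changed direction with this scaling.

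**Figure D3:**
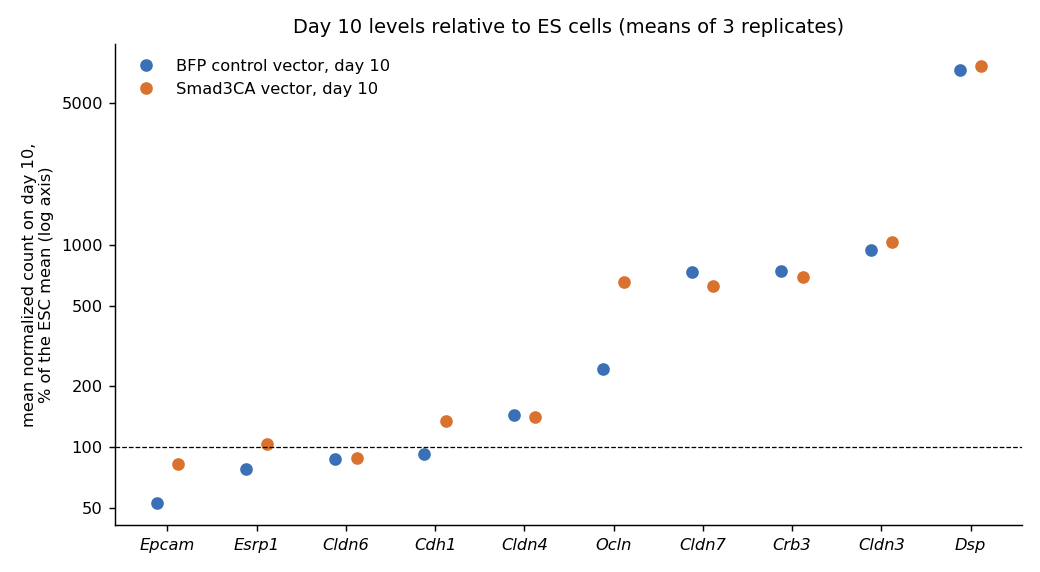
Mean normalized count of each member on day 10 as a percentage of its ESC mean (log axis, means of 3 replicates, dashed line at 100%) in Cont and +Sm3CA, ordered by the Cont value. Epcam, Esrp1, Cldn6, Cdh1 and Cldn4 lie between 53.0% and 144%, and Cldn7, Crb3, Cldn3 and Dsp between 628% and 7638%. Ocln is at 242% in Cont and 654% in +Sm3CA, with few reads in ESCs.

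Compared with MEFs, ESCs had 9 members higher (29.1% of all genes tested were higher) and Dsp lower (30.5% were lower). With only the 6 libraries compared, 5 members passed the filter, and all 5 were called higher. Dsp, at 9.01 ± 2.14 normalized counts in MEFs and 4.43 ± 3.22 in ESCs, was at low levels in both (−1.14 ± 0.46 SE, adjusted p = 0.041), and the call was lost without MEF replicate 2 (−1.03, adjusted p = 0.10), MEF replicate 3 (−1.09, adjusted p = 0.089) or ESC replicate 1 (−0.52, adjusted p = 0.43). It was also lost with the first 2 wells of each replicate (−0.34, adjusted p = 0.67) and with no filter on low counts (−1.15, adjusted p = 0.083). The call of Ocln in this comparison (adjusted p = 0.022) rested on 7 ESC reads, 6 of them in replicate 3, and was lost without that replicate (adjusted p = 0.30) or any MEF replicate (0.050 to 0.059). The largest bounds were those of Epcam, at least 44.7-fold higher in ESCs, and Esrp1, at least 12.2-fold.

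The partner genes with the largest falls from day 10 to ESCs were Pkp1, Pvrl4 and Dsg3. Pkp1, at 68.2 ± 19.2 normalized counts in Cont and 81.5 ± 17.5 in +Sm3CA on day 10, and Dsg3, at 30.2 ± 9.1 and 9.76 ± 1.87, had no read in ESCs. Pvrl4, a nectin, was at 40.6 ± 20.8 and 27.2 ± 1.9 on day 10 and also had no read in ESCs. Over the 19 partners tested 9 were lower and 6 higher in ESCs than in Cont day 10, and 10 lower and 5 higher than in +Sm3CA, with medians of −0.57 and −0.93 against −0.15 and −0.15 over all genes. Of all genes tested, 30.3% were lower and 21.5% higher against Cont, and 2987 and 2041 of 10979 against +Sm3CA. Of 22 other epithelial genes 11 and 12 were lower and 4 and 4 higher, with Krt8 at 557 ± 55 in Cont on day 10 and 5.18 ± 8.97 in ESCs. The stratified epithelium markers summed to 1820 to 2228 in Cont and 1040 to 1466 in +Sm3CA on day 10 and to 0.913 to 14.5 in ESCs, and their part in the levels of Dsp, Cldn3, Cldn7 and Crb3 was not tested.

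The comparison of the vectors asked whether Smad3CA changed the junction genes on the same day. Of the 10 members only Cdh1 was called, on day 8, and that call was lost under 5 alternatives. On day 3 and day 6 no member was called, where 0.0195% and 0.00977% of all genes tested were called (2 and 1 genes, with 523 and 426 at an unadjusted p under 0.05, Cdh1 and Crb3 of the members among them on day 3). On day 8, 1 member was called higher in +Sm3CA, against 0.381% of all genes, and 1559 genes had an unadjusted p under 0.05, with Cdh1 and Epcam (higher) and Cldn3 (lower) among them. On day 10 no member was called, where 3.58% of all genes were called and 1630 had an unadjusted p under 0.05, with Cdh1, Epcam and Ocln among them. The DESeq2 Wald test called the same numbers of members, 0, 0, 1 and 0. The median log2 difference over the 10 members was 0.43, −0.022, 0.32 and 0.13 on days 3, 6, 8 and 10, against 0.0016, 0.0093, −0.0034 and −0.0051 over all genes tested.

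The member called on day 8 was Cdh1, with 149, 84.4 and 126 normalized counts in Cont and 247, 207 and 147 in +Sm3CA. The ranges of the 2 groups overlapped, since the lowest +Sm3CA library was just under the highest Cont library, and the difference was 0.76 ± 0.19 SE (adjusted p = 0.044). It was not called in the fit of all 30 libraries (0.75, adjusted p = 0.16) or without Cont replicate 2 (0.57, adjusted p = 0.27), Cont replicate 3 (0.78, adjusted p = 0.098), +Sm3CA replicate 1 (0.58, adjusted p = 0.22) or +Sm3CA replicate 2 (0.73, adjusted p = 0.15). Neural markers also differed between these groups, summing to 727 to 2814 in Cont and 227 to 385 in +Sm3CA on day 8, and their part in the difference was not tested.

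On the other days the Cdh1 difference was 0.64 ± 0.29 SE on day 3, 0.03 ± 0.20 on day 6 and 0.56 ± 0.20 on day 10 (adjusted p = 0.93, 1.00 and 0.11). The 3 +Sm3CA libraries were all above the 3 Cont libraries on days 3 and 10. Epcam differed by −0.58 ± 0.43 SE and −0.34 ± 0.25 SE on days 3 and 6, and by 0.53 ± 0.24 SE and 0.64 ± 0.24 SE on days 8 and 10 (adjusted p = 0.98, 1.00, 0.26 and 0.14), with groups that did not overlap on days 8 and 10. Ocln was 1.62 ± 0.87 SE on day 8 and 1.45 ± 0.69 on day 10 (adjusted p = 0.38 and 0.29), with no overlap on day 10.

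Counted by libraries that did not overlap, 2 members were higher in +Sm3CA on day 3 (Cdh1 and Crb3, where 11.6% of all genes did not overlap) and none on day 6 (11.5%). On day 8 Epcam was higher and Cldn4 lower (15.9%), and on day 10 Cdh1, Epcam and Ocln were higher (20.7%). With 3 libraries against 3, an exact permutation test cannot give a p below 0.1. The change of the vector difference from day 3 to day 10 was called for no member, where 1.01% of all genes were called (1236 genes at an unadjusted p under 0.05) and the DESeq2 Wald test also called 0 members. The member with the smallest unadjusted p in edgeR was Epcam (1.23 ± 0.50 SE, adjusted p = 0.28).

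For the other members no difference was called. The Dsp difference was −0.02, −0.07, 0.04 and 0.09 on days 3, 6, 8 and 10, each ± 0.15 SE, and that of Crb3 was 0.92 ± 0.40, −0.28 ± 0.24, 0.01 ± 0.22 and −0.07 ± 0.22 SE on the same days (adjusted p = 0.91 on day 3). Cldn4 differed by 2.35 ± 1.19 SE on day 3, with 7 reads in +Sm3CA and 1 in Cont (adjusted p = 0.96), by 0.27 ± 0.45 on day 6 and by −0.54 ± 0.36 on day 8. Cldn3 was −0.53 ± 0.30 SE on day 6, −0.65 ± 0.30 on day 8 and 0.16 ± 0.33 on day 10. Cldn4, Cldn6 and Cldn7 were −0.03 ± 0.34, 0.03 ± 0.43 and −0.21 ± 0.38 SE on day 10, and Esrp1 was 0.42 ± 0.41, with adjusted p from 0.68 to 0.99 for these 4 genes. For Ocln, Cldn6, Cldn7 and Esrp1 on day 3 the SEs of 0.99 to 1.36 came with 1 to 6 reads per group, and smaller differences were not detectable at this depth.

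**Figure D4:**
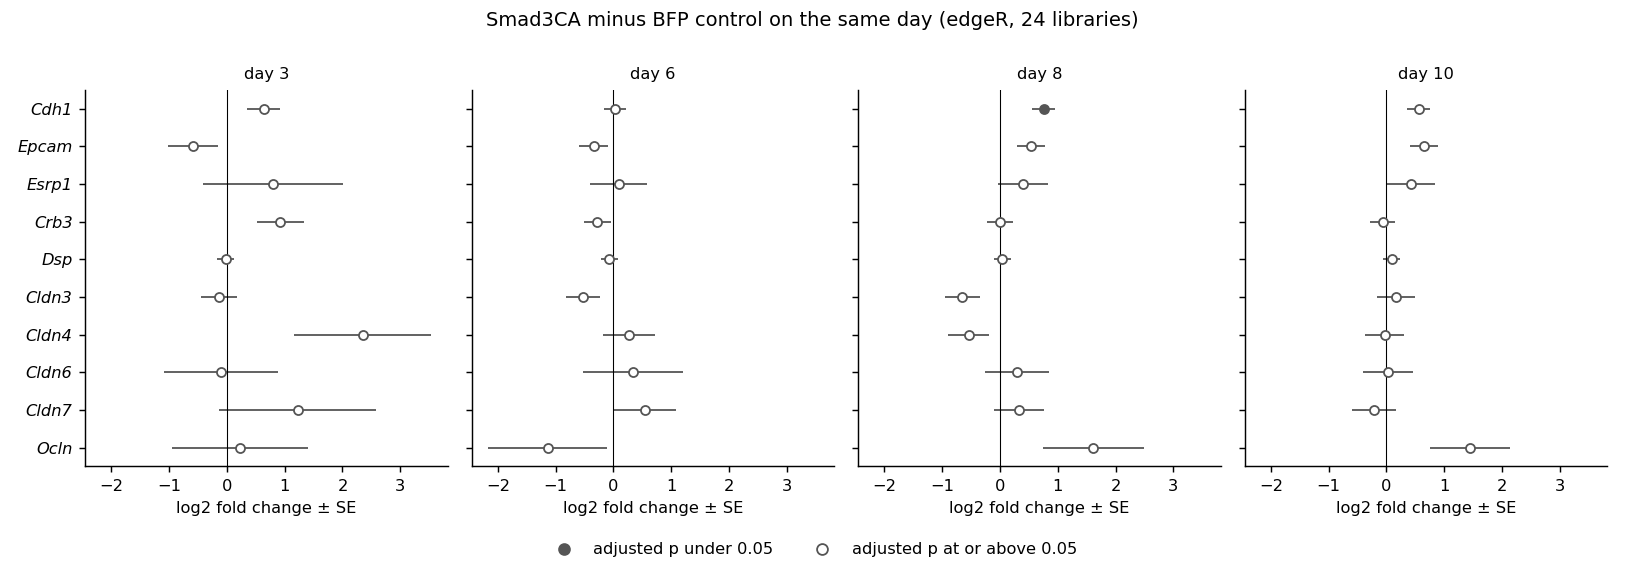
Log2 difference of each member between +Sm3CA and Cont on the same day (x axis, ± SE, edgeR with 24 libraries), with a filled point at adjusted p under 0.05. Cdh1 on day 8 (0.76 ± 0.19) is the only filled point, and Dsp lies within 0.09 of 0 on all 4 days.

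Members of other lists were called between the vectors on day 10, where 3.58% of all genes were called. Of 10 mesenchymal counterparts tested, 4 were lower in +Sm3CA, with Cdh11 at 45.1 ± 18.4 normalized counts in Cont and 12.6 ± 2.6 in +Sm3CA, and 3 of 8 ESC markers were higher. Of the stratified epithelium markers 3 of 5 were lower on each of days 8 and 10, with Krt14 at 381 ± 45 in Cont and 125 ± 67 in +Sm3CA on day 10. Of the markers of other cell types on day 10, 3 of 8 fibroblast markers (Postn, Col1a1 and Col1a2) and 2 of 7 immune markers (Cd52 and Fcer1g) were lower in +Sm3CA, and 2 of 5 neural markers (Ttr and Mbp) were higher. On day 8, where 106 of 10237 genes were called, 3 of 5 neural markers were lower, Ttr and Mbp among them. In the same comparison 1 of 8 fibroblast markers, Lum, was higher. None of the 18 adherens junction and desmosome partners, the 14 other tight junction and polarity genes or the 19 other epithelial genes tested was called on any of days 3, 6, 8 and 10, or in the change of the difference.

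Over the 10 group means, the courses of the members were alike to different degrees, as Pearson's r of log2(mean normalized count + 1), a description over points that share depth and scaling. It was 0.98 for Cdh1 with Epcam and 0.92 for Cldn3 with Dsp. Outside the members, the genes most like Cdh1 by this measure were Nefl (0.98), Ptpn3 (0.98), Gm9897 (0.98), Clcn3 (0.97) and Zfp598 (0.97). Nefl, a neurofilament gene, had mean normalized counts of 0 in MEFs, 4.49 in Cont on day 3, 16.4 on day 6 and 13.9 in ESCs.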

How the data were processed

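STRT RNA-seq had been done on MEFs, ESCs and mOrange-sorted reprogramming cells, with 3 biological replicates in each of 10 groups. The authors deposited raw counts of reads for every gene in every well, and the submitters' processing notes name Bowtie 0.12.9, mm10 and DESeq2 1.6.3. Reads rather than molecules were counted, so intervals cover counting error only. Groups came from the labels of all 84 wells, and the wells of a replicate were summed. DESeq2 1.42.0 gave size factors for levels. edgeR 4.0.16 (R 4.3.3) with TMM, filterByExpr and the quasi-likelihood test was fitted to 24 libraries for the vector comparisons and to all 30 for the others, at an adjusted p of 0.05, and was tested on simulated data. The series' design text pairs replicates over days within a series. Deviations of same-numbered libraries from their group means correlated between −0.073 and 0.12 over the steps between days. All 10 members are named, with at most 3 called genes per list and comparison, those with the largest change, and the 5 genes most correlated with Cdh1. Members and lists were chosen with earlier results of these data known. Alternatives were no filter on low counts, size factors in place of TMM, a Wald test in DESeq2, the first 2 wells, the replicate block, other sets of libraries in the fit, CPM for levels and leaving out each library.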

Additional observations from a re-analysis of the deposited data

How the results depend on the processing

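Of 69 called member differences, 56 kept their call under every alternative that could be fitted (11 of them have no value with only the 6 libraries compared, where the gene did not pass the filter), and 13 lost it under at least 1, all without a change of direction. Fitting only the 6 libraries compared left fewer members past the filter on low counts in most comparisons, and the number of members called was then 3 (of 3 tested) for Cont day 3 and 3 (of 3) for +Sm3CA day 3 against MEFs, 4 (of 5) for Cont day 6 against day 3, 1 (of 7) for Cont day 8 against day 6, 5 (of 6) for +Sm3CA day 6 against day 3, 9 (of 9) for Cont day 10 against MEFs, 3 (of 10) for +Sm3CA day 10 against day 8 and 5 (of 5) for ESCs against MEFs. For Cont day 8 against day 6 it (Cldn4) was also 1 with no filter and 1 with the first 2 wells, and 0 to 1 with a library left out. For the vector comparison on day 8 it was 0 with all 30 libraries in the fit and 0 to 2 with a library left out. Leaving out a library gave 0 to 2 for Cont day 10 against day 8, 4 to 7 for +Sm3CA and 5 to 6 for Cont day 6 against day 3, 5 to 6 for Cont day 3 against MEFs, 8 to 10 for ESCs against MEFs, 5 to 6 and 4 to 5 for ESCs against Cont and +Sm3CA day 10, and 0 to 1 for +Sm3CA day 10 against day 8. The replicate block, which pairs same-numbered replicates, gave 1 in place of 2 for Cont day 10 against day 8, where Cldn7 was no longer called, and changed no other call of a member. The number of members with their highest mean in ESCs was 2 (Epcam and Cldn6) by size factors and 0 by CPM. The cause of these changes was not tested where it is not given. Few reads limit precision for Ocln (at most 47 in a group), for Cldn6 up to day 6 (at most 9) and for Cldn4, Cldn7 and Esrp1 on day 3 (at most 7).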
